A study of Mus musculus with 12 samples.

Results

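The extracellular matrix and cardiac jelly genes described here are 38 of the 15663 genes in the deposited tables. They were chosen by symbol, from a list of matrix proteins and 1 hyaluronan-making enzyme, and all 38 were found. They were divided into 7 fibrillar collagens, 4 other collagens, 13 basement membrane genes, 3 cardiac jelly genes, 6 genes of fibronectin and the elastic fibres, and 5 matricellular or small proteoglycan genes. All 38 passed the minimum mean of 1 CPM in every comparison. Messenger RNA was measured by RNA sequencing of hearts from C57/BL 6 mouse embryos at embryonic day 9.5, with 3 libraries in each of 4 groups. All groups carried the NkxCre recombinase driver and at least 1 floxed Asb2 allele. The control was NkxCre.Asb2fl/+. The Asb2 conditional knockout (Asb2 cKO) was NkxCre.Asb2fl/fl, the Flna-labelled group was NkxCre.Asb2fl/+.Flnafl/fl, and the double-labelled group was NkxCre.Asb2fl/fl.Flnafl/fl. Asb2 encodes the substrate-binding part of a ubiquitin ligase that targets filamins, and Flna encodes filamin A, an actin crosslinker. Deletion is limited to cells with a history of the NkxCre driver, while each library holds whole hearts.

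In the tubular heart the myocardium and the endocardium are separated by cardiac jelly, an acellular matrix rich in hyaluronan and in versican, with hyaluronan link proteins tying them together. Basement membranes, built of laminin trimers, type IV collagen, nidogens and the heparan sulphate proteoglycans perlecan and agrin, lie beneath the endocardium, the myocardium and the epithelia. Fibrillar collagens are products mainly of mesenchyme, such as that of the cushions which later form valves and septa.

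Levels are given as CPM, read counts divided by 1 factor per library in the deposited tables. Depth per library was 25954539 to 42473118 reads. A single read equals 0.0239 to 0.038 CPM, and counting error was small for nearly all of these genes. Asb2 stood at 289, 183 and 218 CPM in control libraries 1, 2 and 3, at 77.8, 163 and 115 in the Asb2 cKO, at 125, 113 and 197 in the Flna-labelled group and at 122, 121 and 153 in the double-labelled group. It was lower in the Asb2 cKO than in the control, with a log2 difference of -0.99 (standard error 0.26, limma adjusted p = 0.0248), although the call was lost without control library 1 or 3 or Asb2 cKO library 3 (log2 -0.82 to -1.02, adjusted p 0.0571 to 0.066) and with plain limma (log2 -0.99, adjusted p = 0.0595). Asb2 was also lower in the double-labelled group than in the control, at -0.78 (standard error 0.17, limma adjusted p = 0.00724). The Flna-labelled group did not pass against the control, at -0.68 (standard error 0.24, limma adjusted p = 0.334). The double-labelled group did not pass against the Flna-labelled group, at -0.10 (standard error 0.21, limma adjusted p = 0.737), with overlapping libraries. For that comparison the step in Asb2 rests on the label. Flna stood at 490.3, 554 and 721 CPM in the control, 1032, 869 and 725 in the Asb2 cKO, 958, 1011 and 989.5 in the Flna-labelled group and 1012, 1012 and 1146 in the double-labelled group. Each library labelled as Flna-deleted thus had more Flna signal than any control library, and every direction given for those 2 groups rests on the label. Each Asb2 cKO library did too. The Flna log2 difference from the control was 0.58 (standard error 0.18, limma adjusted p = 0.0464) there. That call was lost without control or Asb2 cKO library 1 or 2, and with plain limma, library weights, and length and GC trends removed (log2 0.37 to 0.58, adjusted p 0.0522 to 0.161). The difference was 0.86 (standard error 0.15, limma adjusted p = 0.00255) in the double-labelled group and 0.76 (standard error 0.14, limma adjusted p = 0.147) in the Flna-labelled group. A count over the whole gene may miss the loss of a few exons. All 9 cardiomyocyte markers were above 0 in every library. Their summed level was 27151 to 41371 CPM in the control and 22896 to 39357 in the Asb2 cKO. It was 16881 to 31338 in the Flna-labelled group and 27042 to 42066 in the double-labelled group. In the Flna-labelled group 0 of the 9 passed against the control, with log2 differences of -1.09 to -0.39. Against the Flna-labelled group 3 of the 9 were higher in the double-labelled group, 33.3% beside 31.5% of all genes. Their part in the matrix differences was not tested. All 10 markers of primitive red cells were lower in the Asb2 cKO and in the double-labelled group than in the control, beside 21.6% and 32.3% of all genes called. In the Flna-labelled group 4 of the 10 were called lower than in the control (40%, beside 0.072% of all genes). All 10 lay below the control there without overlap, with log2 differences of -1.45 to -0.81, beside 18.0% of all genes without overlap in either direction. The summed level of the 10 was 7482 to 8080 CPM in the control, 508 to 1199 in the Asb2 cKO, 3066 to 3935 in the Flna-labelled group and 351 to 600 in the double-labelled group. The part of red cells in the matrix differences was not tested either. Whether replicates were separate embryos or pools is not in the labels, and the p-values reflect library-to-library spread alone, which may be technical. In a whole heart, fewer cells of a type and less RNA per cell cannot be told apart.

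Per length, the most abundant matrix transcripts of the control heart were Sparc and Fn1. Levels are given here as CPM per kilobase of the deposited gene length, mean ± SD over 3 control libraries. Sparc, a secreted collagen-binding glycoprotein, stood at 222 ± 29.3, and Fn1, fibronectin, at 142 ± 26.8. Next came Col4a1, the main chain of basement membrane collagen, at 105 ± 16.1, and Col2a1, the collagen of cartilage and notochord that embryonic hearts also express, at 89.3 ± 32. Sparc lay above Col4a1 in every control library, but Fn1, Col4a1 and Col2a1 overlapped each with the next in the order. Hapln1, the hyaluronan and proteoglycan link protein, at 78.5 ± 6.1, Nid2, nidogen 2, at 76.6 ± 11, and Col18a1, the basement membrane collagen that yields endostatin, at 76.1 ± 10.7, did not differ beyond their spread. Within the cardiac jelly genes Vcan, the core protein of versican, stood at 48.5 ± 10.4 and Has2, the main hyaluronan synthase of the early heart, at 18.8 ± 3.04. The lowest members were Lama1, the laminin α1 chain, at 2.39 ± 0.705, and Col6a3, a type VI collagen chain, at 0.189 ± 0.0961.

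**Figure D1:**
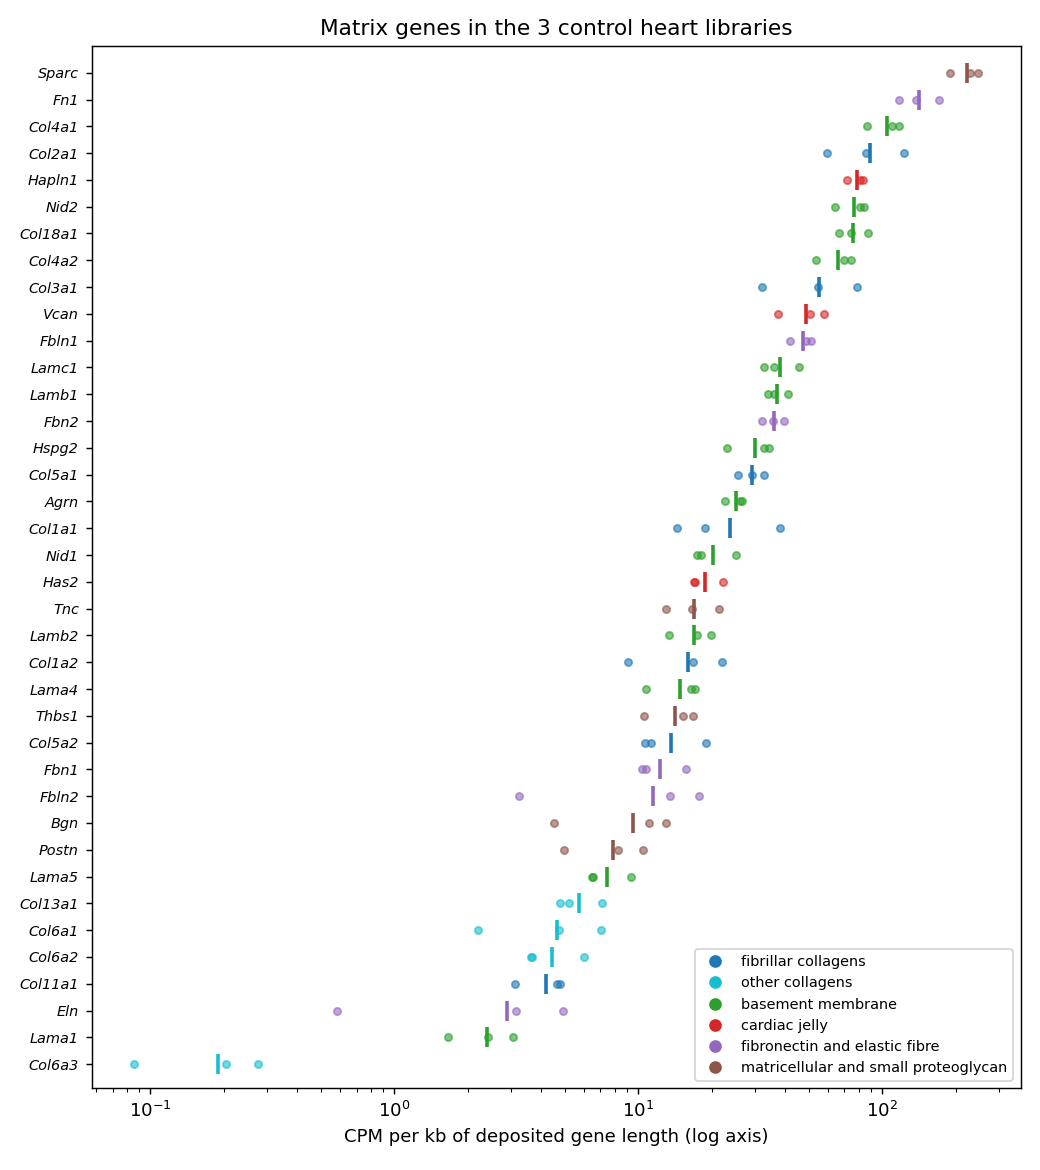
Level of the 38 matrix genes in the 3 control libraries, as CPM per kilobase of deposited gene length on a log axis. Points are libraries, vertical ticks are means, and colours mark the subgroups. Sparc and Fn1 head the order and Col6a3 is lowest.

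Of 13 basement membrane genes 4 rose in the Asb2 cKO and 9 in the double-labelled group, while Col3a1 and Postn fell in both. Of the 38 genes, 6 were higher and 3 lower in the Asb2 cKO than in the control at a limma adjusted p under 0.05, which is 23.7% against a background of 21.6% of the 14034 genes tested. In this fit the share of members called was near that of all genes, and their median log2 difference was 0.10 against -0.01 for all genes. For the double-labelled group, 13 were higher and 4 lower than in the control, 44.7% against a background of 32.3% of 14015 genes, with a median of 0.23 against 0.01. The double-labelled group had 14 higher and 5 lower than the Flna-labelled group, 50% against a background of 31.5% of 13954 genes, with a median of 0.20 against -0.02. These comparisons share libraries (the control or the double-labelled group), so that the values of each are given side by side and no overlap between them is read. Between the Flna-labelled group and the control, 0 members passed, against a background of 0.072% of 13891 genes. Between the double-labelled group and the Asb2 cKO, 0 passed, against 0.0214% of 14037.

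Gene length moved with the differences from the control. The members have a median length of 7426.5 bases, against 3648 to 3670 for all tested genes of the comparisons. Across genes, which are not independent replicates, the correlation of log2 length with the log2 difference was 0.20 for the Asb2 cKO, 0.19 for the double-labelled group and 0.23 for the Flna-labelled group, each against the control. For the double-labelled group it was 0.07 against the Flna-labelled group and -0.004 against the Asb2 cKO. With trends over length and GC content removed, an alternative added after the data were seen, 4 members were higher and 5 lower in the Asb2 cKO, beside 22.5% of all genes. For the double-labelled group the counts were then 10 and 5 against the control (32.6% of genes) and 13 and 6 against the Flna-labelled group (31.4%). The median log2 difference of the members was then -0.038 in the Asb2 cKO, where it turned sign, 0.054 in the double-labelled group against the control and 0.21 against the Flna-labelled group. Over all genes it was 0.0053, 0.0039 and -0.014. Of the 13 basement membrane genes, 3, 7 and 9 were then higher in these comparisons. The 4 higher in the Asb2 cKO were Lama5, Agrn, Hspg2 and Fn1. Without control library 2, the Asb2 cKO count was 5, and without double-labelled library 2 the count against the control was 10. Beside each gene that follows, the settings that end or add its call are named, apart from a replicate block. Each was applied on its own. They are a left-out library, plain limma (no trend or robust option), the joint fit of 4 groups, library weights, the Xist level as a covariate, edgeR or DESeq2 on the recovered reads, the filter of 5 CPM, and length and GC trends removed. The authors' deposited table listed 11 members higher and 6 lower in the Asb2 cKO at their FDR under 0.05, against a background of 26.6% of its genes. Their deposited table for the double-labelled group against the control listed 14 and 5, against 28.9%, and those for the Flna-labelled group against the control (0.78% of genes) and the double-labelled group against the Asb2 cKO (0.145%) listed 0.

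**Figure D2:**
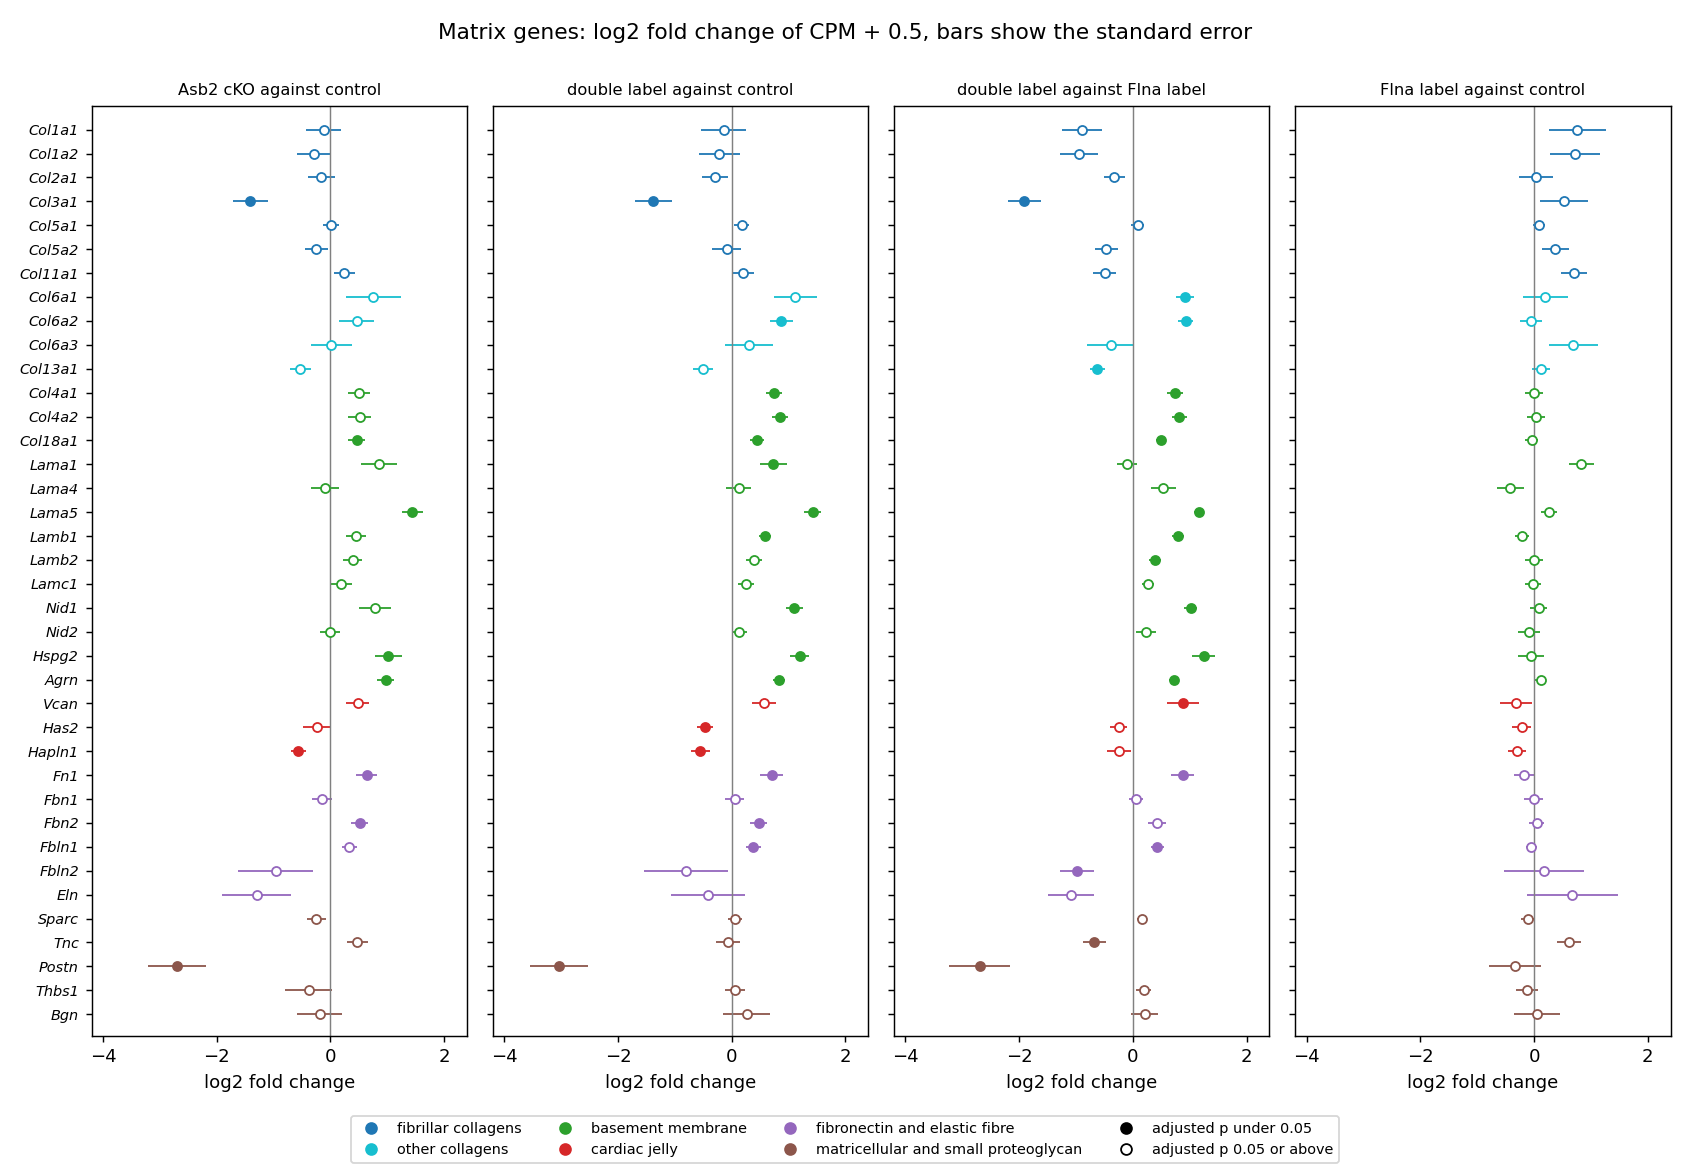
Log2 fold change of CPM + 0.5 for the 38 genes in 4 comparisons, ordered and coloured by subgroup, with bars for the standard error and filled points for an adjusted p under 0.05. Basement membrane genes lie mostly right of 0 in the first 3 panels, Col3a1 and Postn lie far to the left there, and no point is filled for the Flna-labelled group against the control.

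The promoters of 4 members are printed, 2 of basement membrane genes that rose and 2 of the genes that fell most. They are the 250 bases before the listed start, from RefSeq on GRCm38.p6, 5′ to 3′ on the gene's strand, with capitals for GGGCGG and TATAAA on either strand (CCGCCC is the reverse of GGGCGG, and overlapping matches were counted separately). Lama5 lies at chr2:180225860-180226109 on the minus strand, Agrn at chr4:156197489-156197738 on the minus strand, Col3a1 at chr1:45311288-45311537 on the plus strand, and Postn at chr3:54360857-54361106 on the plus strand.
Lama5: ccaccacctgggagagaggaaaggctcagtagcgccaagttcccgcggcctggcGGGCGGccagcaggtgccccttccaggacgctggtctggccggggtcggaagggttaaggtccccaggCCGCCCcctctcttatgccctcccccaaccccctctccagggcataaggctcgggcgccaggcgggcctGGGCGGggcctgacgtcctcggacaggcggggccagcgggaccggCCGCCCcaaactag
Agrn: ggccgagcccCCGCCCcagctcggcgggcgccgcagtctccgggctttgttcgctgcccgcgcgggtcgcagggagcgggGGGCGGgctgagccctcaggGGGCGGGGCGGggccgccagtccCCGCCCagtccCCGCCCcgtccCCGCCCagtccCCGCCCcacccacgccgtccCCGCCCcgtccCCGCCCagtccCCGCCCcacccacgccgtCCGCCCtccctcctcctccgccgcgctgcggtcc
Col3a1: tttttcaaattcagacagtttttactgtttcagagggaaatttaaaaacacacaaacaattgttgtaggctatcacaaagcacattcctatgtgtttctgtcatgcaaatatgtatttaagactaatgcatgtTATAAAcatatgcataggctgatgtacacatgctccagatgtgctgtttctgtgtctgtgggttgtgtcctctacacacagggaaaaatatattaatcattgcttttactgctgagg
Postn: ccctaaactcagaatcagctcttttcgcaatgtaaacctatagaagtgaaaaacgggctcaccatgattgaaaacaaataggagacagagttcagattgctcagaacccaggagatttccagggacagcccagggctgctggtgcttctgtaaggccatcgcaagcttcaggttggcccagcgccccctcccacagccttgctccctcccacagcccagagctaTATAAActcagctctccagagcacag
The first of these motifs, the core of a GC box, has 4 matches in Lama5 and 12 in Agrn, with a GC content of 72.4% and 83.6%. Col3a1 and Postn have 0, with a GC content of 35.2% and 52.0%, and 1 match each to the second, the letters of a TATA box, whose first base lies 117 bases before the start in Col3a1 and 26 in Postn. Entries were found for 26 of the 38 members, over windows from 250 bases before to 50 after the start. Of the 10 matched members that were higher in the double-labelled group than in the control, 9 held the GC box letters and 0 the TATA box letters. Of the 3 that were lower, 0 and 2 did, and of the 13 not called, 8 and 2. Among all 32851 promoter windows, 35.7% held the GC box letters and 13.6% the TATA box letters. These windows cover 27025 symbols, whether or not expressed in the heart, and some symbols have more than 1. The median GC content was 67.5% for the higher members, 53.0% for the lower and 60.3% for those not called. It was 52.7% for all windows. The windows of Col4a1 and Col4a2, both among the higher members, overlap. Both motifs were picked after the values were seen. A match is a description of letters, not a bound site.

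A few other motifs were looked for on both strands of the same windows. The hypoxia element core ACGTG stood in 3 of 26 members, against 19.6% of all windows. The TEAD core CATTCC stood in 2 members, against 14.7%. The SMAD core CAGACA stood in 7 members, against 21.0% of windows.

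Among basement membrane genes, 4 of 13 rose in the Asb2 cKO and 0 fell, which is 30.8% against 21.6% of all genes, and for 9 of the 13 all Asb2 cKO libraries lay above the control, against a background of 20.0% of genes. In the double-labelled group 9 of 13 rose against the control and 9 of 13 against the Flna-labelled group, with 0 falling in either, against backgrounds of 15.6% and 15.1% of genes higher. Lama5, the laminin α5 chain of epithelial and mature vascular basement membranes, had the largest rise against the control in both groups. Its levels in CPM were 75.2, 74.4 and 108 in the control, 226, 288 and 187 in the Asb2 cKO, 107, 101 and 96.2 in the Flna-labelled group and 238, 229.7 and 214 in the double-labelled group. All 6 libraries of the Asb2 cKO and the double-labelled group lay above all 6 others. The log2 difference from the control was 1.44 (standard error 0.19, limma adjusted p = 0.000908) in the Asb2 cKO and 1.42 (standard error 0.15, limma adjusted p = 0.000146) in the double-labelled group. Agrn, the heparan sulphate proteoglycan agrin, read 275, 234 and 269 CPM in the control and 489.6, 591 and 452 in the Asb2 cKO. It read 275, 285 and 282 in the Flna-labelled group and 439.9, 480.1 and 466 in the double-labelled group, so that the same 6 libraries were the high ones. Agrn was higher than the control by 0.97 (standard error 0.15, limma adjusted p = 0.00187) in the Asb2 cKO and by 0.84 (standard error 0.11, limma adjusted p = 0.000543) in the double-labelled group, on the log2 scale. Both genes passed under all 19 alternatives of each of these comparisons.

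Hspg2 encodes perlecan, the large heparan sulphate proteoglycan of basement membranes. Its level was 492, 331 and 469 CPM in the control, 672, 1258 and 749 in the Asb2 cKO, 331, 370.5 and 560.1 in the Flna-labelled group and 814, 999 and 1125 in the double-labelled group. Asb2 cKO library 2 was the highest of all 12, and neither mutant group overlapped the control. The rise was 1.02 (standard error 0.24, limma adjusted p = 0.0155) in the Asb2 cKO, where it left the threshold without control library 2 (log2 0.84, adjusted p = 0.0538), and 1.19 (standard error 0.17, limma adjusted p = 0.00108) in the double-labelled group. With length and GC trends removed the rises were 0.62 and 0.76 (adjusted p = 0.0447 and 0.00478). Against the Flna-labelled group Hspg2 was higher by 1.24 (standard error 0.21, limma adjusted p = 0.00399) in the double-labelled group, above the 1.16 of Lama5. Col18a1 was at 593, 527 and 696 CPM in the control and 594, 561 and 599 in the Flna-labelled group. In the Asb2 cKO it was at 839, 849 and 798 and in the double-labelled group at 843, 822 and 803, again with no overlap. Its log2 rise of 0.46 in the Asb2 cKO (limma adjusted p = 0.0452) was lost without control library 1 or 2 or Asb2 cKO library 1 or 2 or 3 (log2 0.37 to 0.49, adjusted p 0.0748 to 0.178) and with plain limma and length and GC trends removed (log2 0.22 to 0.46, adjusted p 0.0753 to 0.188). The rise of 0.45 in the double-labelled group (limma adjusted p = 0.0212) was lost without control library 1 or 2 or double-labelled library 1 or 2 (log2 0.36 to 0.45, adjusted p 0.0509 to 0.0848) and with the Xist covariate and length and GC trends removed (log2 0.21 to 0.42, adjusted p 0.112 to 0.13). With length and GC trends removed alone, the 2 rises were 0.22 and 0.21. Against the Flna-labelled group the double-labelled group was higher by 0.49 (standard error 0.09, limma adjusted p = 0.00431), a call that held under all 19 alternatives.

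The 2 genes of type IV collagen chains had similar differences. Col4a1 was at 744, 585 and 793 CPM in the control, 812, 1286 and 932 in the Asb2 cKO, 713, 589 and 830.1 in the Flna-labelled group and 1078, 1215 and 1237 in the double-labelled group. Col4a2 was at 457, 353 and 487 CPM in the control, 496, 822 and 558 in the Asb2 cKO, 432, 371 and 523 in the Flna-labelled group and 707, 807 and 809 in the double-labelled group. Every double-labelled library lay above every control and Flna-labelled library for both genes. Against the control, Col4a1 rose by 0.74 (standard error 0.14, limma adjusted p = 0.00365) and Col4a2 by 0.85 (standard error 0.14, limma adjusted p = 0.00187) in the double-labelled group. In the Asb2 cKO their differences of 0.50 and 0.51 did not pass, with limma adjusted p of 0.0859 and 0.0899, although the libraries did not overlap. There Col4a1 passed with DESeq2, the joint fit and the Xist covariate, and without Asb2 cKO library 1 (log2 0.50 to 0.64, adjusted p 0.0223 to 0.0489) and Col4a2 with DESeq2 and the Xist covariate (log2 0.55, adjusted p 0.0197 to 0.032). The 2 genes start back to back on chromosome 8, at positions 11312826 (minus strand) and 11312805 (plus strand) of GRCm38, so that their transcribed parts overlap by 22 bases, where reads cannot be assigned to one or the other without strand. Per length, Col4a1 was 1.46 to 1.62 times Col4a2 in every library, a range of 1.11-fold, while both genes varied with the group. The ratio was 1.58 to 1.61 in the control, 1.52 to 1.62 in the Asb2 cKO and 1.54 to 1.60 in the Flna-labelled group. All double-labelled libraries lay below these, at 1.46 to 1.49.

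Nid1, the laminin and collagen linker nidogen 1, was at 105, 109 and 151 CPM in the control, 168, 340.5 and 154 in the Asb2 cKO, 142, 115 and 127 in the Flna-labelled group and 251, 236 and 291 in the double-labelled group. All double-labelled libraries were high, while in the Asb2 cKO library 2 stood far above libraries 1 and 3, which lay just above the highest control. The rise in the double-labelled group was 1.10 (standard error 0.15, limma adjusted p = 0.000724), and the difference in the Asb2 cKO, 0.78, had a limma adjusted p of 0.08 and passed with DESeq2, the joint fit and the Xist covariate (log2 0.78 to 0.88, adjusted p 0.00724 to 0.0354). Its paralogue Nid2 differed from the control by -0.01 in the Asb2 cKO and 0.14 in the double-labelled group, with limma adjusted p of 0.979 and 0.46. Nid2 was called in the double-labelled against the Flna-labelled group without Flna-labelled library 3 (log2 0.45, adjusted p = 0.0164). Per length, the ratio of Nid1 to Nid2 was 0.21 to 0.31 in the control, 0.32 to 0.62 in the Asb2 cKO, 0.22 to 0.37 in the Flna-labelled group and 0.49 to 0.53 in the double-labelled group.

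Laminins are trimers of an α, a β and a γ chain. Lamb1, the β1 chain, was at 357, 337 and 407 CPM in the control, 421, 647 and 454 in the Asb2 cKO, 309.5, 283 and 358 in the Flna-labelled group and 539, 553 and 551 in the double-labelled group. It was higher in the double-labelled group than in the control by 0.58 (standard error 0.11, limma adjusted p = 0.00368) and than in the Flna-labelled group by 0.80 (standard error 0.10, limma adjusted p = 0.00119), with no overlap. With length and GC trends removed, the first of these was 0.34 (adjusted p = 0.0161). Lamb1 differed in the Asb2 cKO by 0.45 (limma adjusted p = 0.0887) and passed with DESeq2, the joint fit and the Xist covariate (log2 0.45 to 0.49, adjusted p 0.0336 to 0.0381). Lamc1, the γ1 chain found in most laminins of this stage, did not pass in any comparison, with a log2 difference of 0.19 in the Asb2 cKO and 0.25 in the double-labelled group. Lamc1 was called in the double-labelled group against the control without control library 3 (log2 0.39, adjusted p = 0.0437), and against the Flna-labelled group with library weights, and without Flna-labelled library 3 (log2 0.30 to 0.36, adjusted p 0.0199 to 0.0334). The ratio of Lamb1 to Lamc1 per length was 0.89 to 1.03 in the control, 1.05 to 1.31 in the Asb2 cKO, 0.81 to 0.88 in the Flna-labelled group and 1.11 to 1.30 in the double-labelled group. Lamb2, the β2 chain, passed only in the double-labelled against the Flna-labelled group, at 0.39 (standard error 0.11, limma adjusted p = 0.0293), and lost the call without Flna-labelled library 1 or 2 or double-labelled library 1 or 3 (log2 0.30 to 0.40, adjusted p 0.0652 to 0.106) and with plain limma, the joint fit and the Xist covariate (log2 0.34 to 0.39, adjusted p 0.0659 to 0.0787). Lamb2 was also called in the Asb2 cKO with the Xist covariate (log2 0.42, adjusted p = 0.0347) and in the double-labelled group against the control with DESeq2 and library weights, and without control library 1 (log2 0.38 to 0.52, adjusted p 0.0267 to 0.0479).

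Lama1, the α1 chain of early embryonic basement membranes, was at 15.8, 22.9 and 29.1 CPM in the control, 67.4, 31.8 and 30.2 in the Asb2 cKO, 36.3, 47.3 and 35.9 in the Flna-labelled group and 42.8, 41 and 28.4 in the double-labelled group. All Asb2 cKO and Flna-labelled libraries lay above the highest control. In the Asb2 cKO the log2 difference of 0.86 (limma adjusted p = 0.0824) did not pass, but did with DESeq2, the joint fit and the Xist covariate (log2 0.81 to 0.95, adjusted p 0.0118 to 0.0482). The rise in the double-labelled group of 0.73 (limma adjusted p = 0.0374) was lost without control library 1 or 2 or double-labelled library 1 or 2 (log2 0.50 to 0.77, adjusted p 0.0776 to 0.125) and with plain limma, the joint fit, the Xist covariate and length and GC trends removed (log2 0.50 to 0.89, adjusted p 0.0657 to 0.128). Control and double-labelled libraries overlapped, since double-labelled library 3 lay below control library 3. Lama4, the α4 chain of vascular basement membranes, did not pass, with a log2 difference of -0.09 in the Asb2 cKO and 0.12 in the double-labelled group, but against the Flna-labelled group it was called with DESeq2 and library weights, and without Flna-labelled library 3 (log2 0.56 to 0.71, adjusted p 0.028 to 0.0325). Summed per length over 5 α chain genes (Lama2 and Lama3 included), Lama5 made up 25.0 to 31.3% in the control, 47.9 to 51.3% in the Asb2 cKO, 30.9 to 38.1% in the Flna-labelled group and 41.0 to 51.3% in the double-labelled group. Lama4 made up 52.2 to 65.5% in the control, 26.0 to 38.5% in the Asb2 cKO, 35.6 to 51.1% in the Flna-labelled group and 30.9 to 44.2% in the double-labelled group.

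Markers of cells that make basement membrane were read beside these genes. Of 10 markers of endocardium and endothelium, 1 rose and 3 fell in the Asb2 cKO (40% called, beside 21.6% of all genes), with a median log2 difference of 0.015. Kdr, a receptor for vascular growth factor, rose by 0.97, while Tek, the angiopoietin receptor, was at -0.52, Cd34, a sialomucin, at -0.56 and Emcn, endomucin, at -0.65. In the double-labelled group 4 rose and 1 fell against the control (50% called, beside 32.3% of all genes). Kdr was higher there by 1.19, Pecam1, an endothelial adhesion molecule, by 0.82, Cdh5, the endothelial cadherin, by 0.52 and Tie1, an endothelial receptor kinase, by 0.47, and Cd34 was at -0.65. Against the Flna-labelled group 4 of the 10 were higher and 1 lower in the double-labelled group (50%, beside 31.5% of all genes). The median log2 difference was 0.51 there and 0.25 against the control. The summed level of the 10 was 955 to 1197 CPM in the control, 1010 to 1440 in the Asb2 cKO, 848 to 1066 in the Flna-labelled group and 1250 to 1672 in the double-labelled group. Of 11 markers of pharyngeal endoderm and surface epithelium, 5 (45.5%) rose in the Asb2 cKO, and of the 10 tested in the double-labelled group 2 (20.0%) rose, Krt8 and Krt18. Relative to the Flna-labelled group 1 of the 11 was higher in the double-labelled group (9.09%, beside 31.5% of all genes). The summed level of the 11 was 227 to 305 CPM in the control, 448 to 602 in the Asb2 cKO, 231 to 438 in the Flna-labelled group and 342 to 586 in the double-labelled group. No marker of either list was at 0 in every library of a group. Their part in the basement membrane result was not tested.

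**Figure D3:**
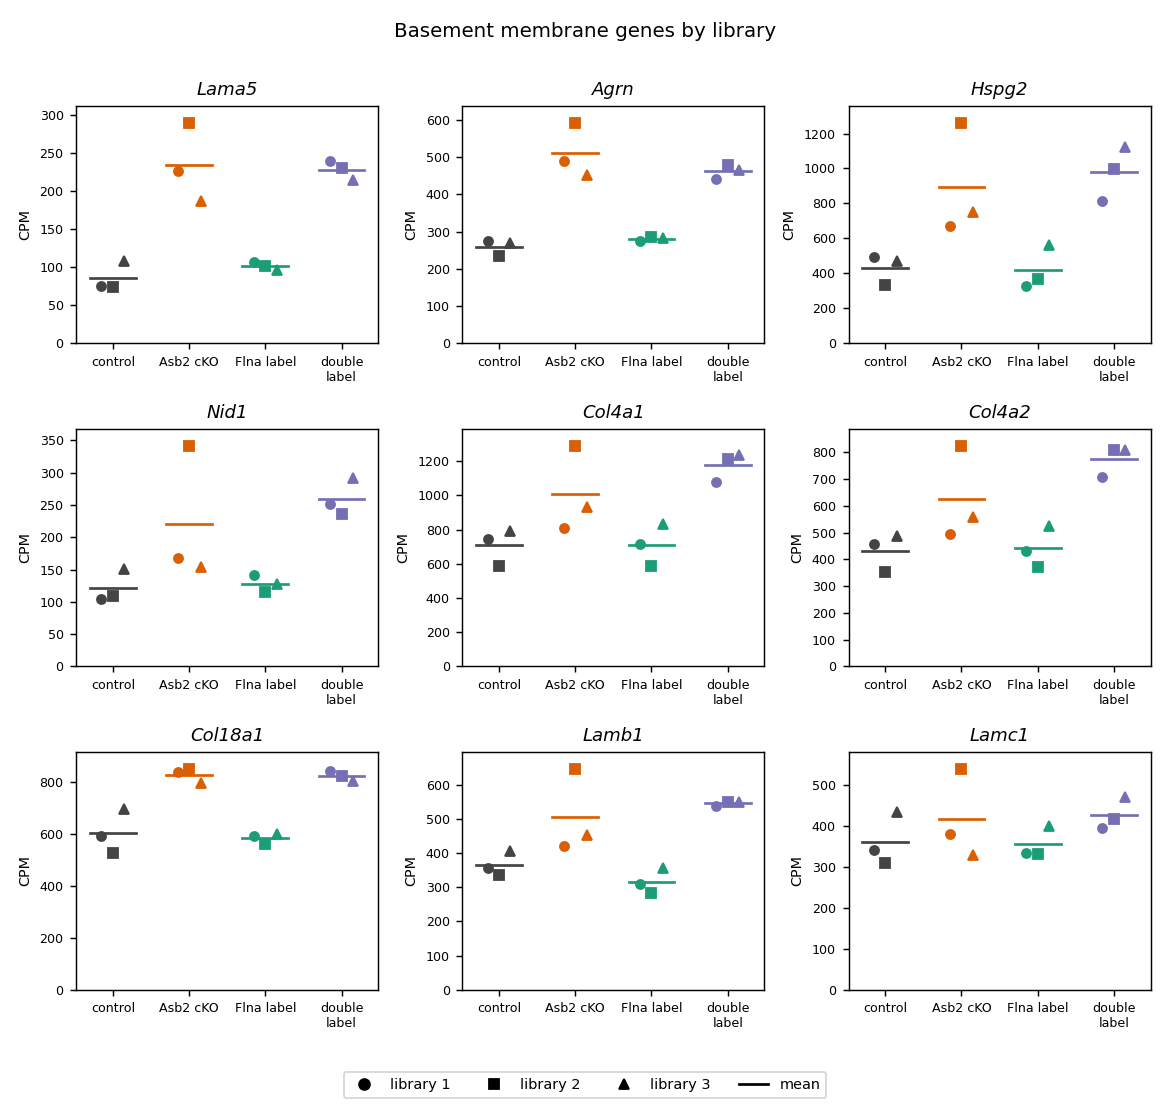
CPM of 9 basement membrane genes in each library, with 1 marker shape for each library number and a line for the group mean. Lama5 and Agrn are high in all 6 libraries of the Asb2 cKO and the double-labelled group, Nid1 is high in Asb2 cKO library 2 and the double-labelled libraries, and Lamc1 overlaps between groups.

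The 3 cardiac jelly genes did not move one way. Hapln1, the link protein that fixes versican to hyaluronan, was at 407, 362 and 419.9 CPM in the control and 279.8, 249 and 272 in the Asb2 cKO. It was at 289, 273 and 417 in the Flna-labelled group and 209.9, 272 and 345 in the double-labelled group. All Asb2 cKO and double-labelled libraries were below the lowest control, and 2 of the 3 Flna-labelled libraries were as well. The log2 difference from the control was -0.57 (standard error 0.13, limma adjusted p = 0.0129) in the Asb2 cKO and -0.55 (standard error 0.17, limma adjusted p = 0.0309) in the double-labelled group, where the call was lost without control library 1 or 3 or double-labelled library 1 or 2 (log2 -0.37 to -0.55, adjusted p 0.0712 to 0.0905) and with plain limma and the Xist covariate (log2 -0.45 to -0.55, adjusted p 0.0744 to 0.174). Has2 was at 94.4, 72.6 and 71.7 CPM in the control, 90.1, 43.1 and 77.8 in the Asb2 cKO, 57.2, 63.4 and 86 in the Flna-labelled group and 57.1, 62.3 and 51.9 in the double-labelled group. The double-labelled libraries were all below the control, while Asb2 cKO libraries 1 and 3 lay within the control range. The log2 difference of Has2 in the double-labelled group was -0.47 (standard error 0.13, limma adjusted p = 0.0238), and it lost the call without control library 1 or double-labelled library 1 or 3 (log2 -0.34 to -0.47, adjusted p 0.0515 to 0.0748) and with plain limma and the joint fit (log2 -0.47, adjusted p 0.0583 to 0.147).

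Vcan was at 886, 572 and 773 CPM in the control, 849, 1311 and 956 in the Asb2 cKO, 469, 478 and 893 in the Flna-labelled group and 823, 1116 and 1373 in the double-labelled group. Both mutant groups reached above the control and overlapped it. The log2 difference of 0.48 in the Asb2 cKO and 0.56 in the double-labelled group had limma adjusted p of 0.114 and 0.0693. Vcan passed in the Asb2 cKO with the Xist covariate (log2 0.53, adjusted p = 0.0174), and in the double-labelled group with DESeq2 and library weights, and without control library 1 or double-labelled library 1 (log2 0.58 to 0.76, adjusted p 0.0127 to 0.0418). The double-labelled group passed against the Flna-labelled group, at 0.88 (standard error 0.28, limma adjusted p = 0.0467), with overlapping libraries, and lost the call without Flna-labelled library 1 or 2 or double-labelled library 2 or 3 (log2 0.71 to 0.86, adjusted p 0.107 to 0.138) and with plain limma, edgeR, DESeq2, the Xist covariate and length and GC trends removed (log2 0.62 to 0.88, adjusted p 0.0591 to 0.125). The Flna-labelled group did not differ from the control at the threshold for Hapln1, Has2 or Vcan, with log2 differences of -0.30, -0.22 and -0.32.

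Fn1 encodes fibronectin, which binds integrins, collagens and fibrin. It read 1141, 968 and 1408 CPM in the control, 1746, 2079 and 1605 in the Asb2 cKO, 940.0, 885 and 1301 in the Flna-labelled group and 1461, 1925 and 2377 in the double-labelled group. Mutant libraries lay above all control libraries. The rise was 0.63 (standard error 0.18, limma adjusted p = 0.0285) in the Asb2 cKO and 0.70 (standard error 0.20, limma adjusted p = 0.0225) in the double-labelled group. It left the threshold in the Asb2 cKO without control library 1 or 2 or Asb2 cKO library 2 (log2 0.51 to 0.62, adjusted p 0.0654 to 0.118) and with plain limma (log2 0.63, adjusted p = 0.0582), and in the double-labelled group without control library 2 or double-labelled library 2 or 3 (log2 0.53 to 0.69, adjusted p 0.0565 to 0.0808) and with plain limma and the Xist covariate (log2 0.70 to 0.82, adjusted p 0.054 to 0.0547). It was also higher than in the Flna-labelled group, by 0.88 (standard error 0.21, limma adjusted p = 0.0152), lost without Flna-labelled library 1 or 2 or double-labelled library 2 (log2 0.77 to 0.86, adjusted p 0.054 to 0.0563).

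Fbn2, fibrillin 2, the microfibril protein of embryonic tissues, was at 373, 336 and 412 CPM in the control, 481, 634 and 491 in the Asb2 cKO and 432, 519 and 618 in the double-labelled group. No mutant library overlapped the control. Its log2 rise of 0.51 in the Asb2 cKO (limma adjusted p = 0.0371) was lost without control library 1 or 2 or Asb2 cKO library 2 or 3 (log2 0.38 to 0.57, adjusted p 0.0554 to 0.136) and with plain limma and length and GC trends removed (log2 0.29 to 0.51, adjusted p 0.0746 to 0.101). The rise of 0.47 in the double-labelled group (limma adjusted p = 0.0307) was lost without control library 1 or 2 or double-labelled library 2 or 3 (log2 0.35 to 0.48, adjusted p 0.0655 to 0.105) and with plain limma, the Xist covariate and length and GC trends removed (log2 0.22 to 0.56, adjusted p 0.0696 to 0.169). With length and GC trends removed alone, the 2 rises were 0.29 and 0.22. Fbn2 did not pass against the Flna-labelled group, but did with DESeq2 and library weights, and without double-labelled library 1 or Flna-labelled library 3 (log2 0.45 to 0.56, adjusted p 0.00743 to 0.0246). Fbn1, fibrillin 1, did not pass, with -0.15 and 0.06, and was called lower in the Asb2 cKO with length and GC trends removed (log2 -0.41, adjusted p = 0.0371). Fbln1, fibulin 1, a partner of versican and fibronectin, was at 232, 191 and 223 CPM in the control, 268, 287 and 255 in the Asb2 cKO and 240.1, 289 and 315 in the double-labelled group, all above the control. Fbln1 was called in the Asb2 cKO with DESeq2 and the joint fit (log2 0.33 to 0.34, adjusted p 0.0447 to 0.0477). It passed in the double-labelled group at 0.38 (standard error 0.13, limma adjusted p = 0.0454), lost without control library 1 or 2 or 3 or double-labelled library 2 or 3 (log2 0.30 to 0.44, adjusted p 0.0523 to 0.151) and with plain limma and the Xist covariate (log2 0.36 to 0.38, adjusted p 0.094 to 0.17). It was higher than in the Flna-labelled group by 0.43 (standard error 0.11, limma adjusted p = 0.0193), lost without Flna-labelled library 1 or 2 or double-labelled library 2 (log2 0.41 to 0.42, adjusted p 0.067 to 0.0779).

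Fbln2, fibulin 2, and Eln, elastin, scattered widely in the control. Fbln2 was at 19.3, 79.7 and 106 CPM in the control, 32.9, 21.8 and 30.1 in the Asb2 cKO, 82.4, 60.6 and 47.6 in the Flna-labelled group and 48, 22.3 and 28.5 in the double-labelled group. Control library 1 was the lowest of all 12, and its group overlapped the others. The double-labelled group was lower than the Flna-labelled group, at -0.98 (standard error 0.30, limma adjusted p = 0.0408), lost without Flna-labelled library 1 or 2 or double-labelled library 2 or 3 (log2 -0.74 to -0.99, adjusted p 0.0848 to 0.112) and with plain limma, edgeR, the joint fit and the Xist covariate (log2 -0.79 to -0.98, adjusted p 0.0531 to 0.196). Against the control, Fbln2 differed by -0.96 in the Asb2 cKO and -0.80 in the double-labelled group (limma adjusted p = 0.344 and 0.46). In the Asb2 cKO it was called lower without control library 1 (log2 -1.70, adjusted p = 0.000815), and likewise the double-labelled group was without control library 1 (log2 -1.54, adjusted p = 0.00994). Eln was at 1.48, 8.01 and 12.6 CPM in the control, 2.73, 1.56 and 1.72 in the Asb2 cKO, 18.1, 7.81 and 5.25 in the Flna-labelled group and 4.56, 4.49 and 3.12 in the double-labelled group. As with Fbln2, control library 1 lay far below libraries 2 and 3. Eln did not pass by limma in any comparison, with -1.30 in the Asb2 cKO (limma adjusted p = 0.152). It was called lower in the Asb2 cKO with DESeq2 and the Xist covariate, and without control library 1 (log2 -1.41 to -2.10, adjusted p 0.00336 to 0.0477), and the authors' deposited table lists it lower there at an FDR of 0.00913. It was called lower in the double-labelled group without control library 1 (log2 -1.23, adjusted p = 0.0114) against the control, and with DESeq2 and library weights, and without Flna-labelled library 3 (log2 -1.33 to -1.46, adjusted p 0.00658 to 0.0198) against the Flna-labelled group.

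Of 7 fibrillar collagens, 1 (14.3%) fell and 0 rose in the Asb2 cKO, in the double-labelled group against the control, and in the double-labelled group against the Flna-labelled group, beside 21.6%, 32.3% and 31.5% of all genes called. The one that fell each time was Col3a1, the type III collagen of soft and mesenchymal tissues. It was at 229, 388 and 560.4 CPM in the control, 175, 113 and 135 in the Asb2 cKO, 700.5, 651 and 329 in the Flna-labelled group and 179, 119.7 and 131 in the double-labelled group. All 6 Asb2 cKO and double-labelled libraries were below all 6 others, and the 6 others ranged widely. The log2 difference from the control was -1.41 (standard error 0.30, limma adjusted p = 0.0135) in the Asb2 cKO, and the call was lost without Asb2 cKO library 2 (log2 -1.26, adjusted p = 0.0925). In the double-labelled group it was -1.38 (standard error 0.33, limma adjusted p = 0.0192) against the control, lost without control library 2 or double-labelled library 2 or 3 (log2 -1.26 to -1.34, adjusted p 0.06 to 0.0853) and with the Xist covariate (log2 -1.01, adjusted p = 0.0823), and -1.91 (standard error 0.29, limma adjusted p = 0.00334) against the Flna-labelled group, which held under all 19 alternatives.

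The other 6 fibrillar collagens did not pass. Col1a1, the main chain of type I collagen, was at 94, 123 and 249 CPM in the control, 117, 156 and 122 in the Asb2 cKO, 259, 374 and 144 in the Flna-labelled group and 182, 106 and 111 in the double-labelled group. Its partner Col1a2 was at 101, 185 and 245 CPM in the control and 355, 353 and 166 in the Flna-labelled group, and the highest libraries of both genes were Flna-labelled libraries 1 and 2. The nearest to the threshold was the double-labelled against the Flna-labelled group, with log2 differences of -0.90 and -0.94 and limma adjusted p of 0.0899 and 0.0664. There Col1a1 passed with library weights, and without Flna-labelled library 3 (log2 -1.18 to -1.26, adjusted p 0.0119 to 0.0155) and Col1a2 with library weights and length and GC trends removed, and without double-labelled library 1 or Flna-labelled library 3 (log2 -1.09 to -1.31, adjusted p 0.0046 to 0.0497). In the same comparison Col11a1 passed with DESeq2 and library weights, and without Flna-labelled library 3 (log2 -0.50 to -0.72, adjusted p 0.00647 to 0.0406) and Col5a2 with library weights, and without Flna-labelled library 3 (log2 -0.60 to -0.70, adjusted p 0.016 to 0.0418). Col5a1 and Col5a2, chains of type V collagen that start collagen fibrils, Col11a1 of type XI and Col2a1 overlapped the control in both the Asb2 cKO and the double-labelled group. Col5a1 differed from the control by 0.01 in the Asb2 cKO and 0.17 in the double-labelled group. Col2a1 differed by -0.16 and -0.30 in the same comparisons, and was called lower in the double-labelled group with the Xist covariate, and without control library 2 (log2 -0.56 to -0.70, adjusted p 0.0343 to 0.0357).

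Of all genes, 21.6% were called in the Asb2 cKO and 32.3% in the double-labelled group against the control. Of the 9 cushion mesenchyme markers, 0 passed in the Asb2 cKO and 1 (11.1%) fell in the double-labelled group (Msx1, a homeobox gene, log2 -0.70). The summed level was 645 to 683 CPM in the control, 617 to 688 in the Asb2 cKO, 552 to 731 in the Flna-labelled group and 614 to 710 in the double-labelled group, and no marker was at 0 throughout a group. Of 6 markers of proepicardium and epicardium found, 1 (16.7%) rose in both groups, Krt19, a keratin of many epithelia, by 2.43 and 2.66. The median log2 difference of the 6 was only 0.10 in the Asb2 cKO and 0.02 in the double-labelled group. The lowest was -0.89 and -0.65. The summed level was 201 to 419 CPM in the control, 596 to 869 in the Asb2 cKO, 274 to 327 in the Flna-labelled group and 812 to 915 in the double-labelled group. Against the Flna-labelled group, 50% of the 6 were called in the double-labelled group, beside 31.5% of all genes. There 1 was higher, Krt19, at 3.13, and 2 were lower, Tcf21, at -1.01, and Wt1, at -0.62 (log2), both transcription factors of epicardium. The part of these cells in the fall of Col3a1 was not tested.

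Type VI collagen forms beaded filaments beside basement membranes. Col6a2 was at 30.3, 30.2 and 49.8 CPM in the control, 34.6, 79.8 and 43.9 in the Asb2 cKO, 35.4, 32 and 35.9 in the Flna-labelled group and 57, 63.3 and 79.4 in the double-labelled group. The double-labelled libraries were above all control and Flna-labelled libraries. It rose by 0.87 (standard error 0.20, limma adjusted p = 0.0114) against the control and 0.93 (standard error 0.13, limma adjusted p = 0.00163) against the Flna-labelled group. Col6a1 was at 9.54, 20.6 and 30.5 CPM in the control, 20.6, 57.2 and 25.2 in the Asb2 cKO, 25.9, 18.3 and 19.6 in the Flna-labelled group and 39.1, 36.5 and 45.2 in the double-labelled group. It passed against the Flna-labelled group, at 0.92 (standard error 0.15, limma adjusted p = 0.00314), while against the control its log2 difference of 1.12 had a limma adjusted p of 0.0604. The first call was lost with the joint fit (log2 0.92, adjusted p = 0.108), and against the control Col6a1 passed with DESeq2, library weights and the Xist covariate, and without control library 1 or 3 (log2 0.67 to 1.75, adjusted p 0.00442 to 0.029). Col6a3, at 1.02, 2.44 and 3.29 CPM in the control, did not pass anywhere.

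Col13a1, a transmembrane collagen, was at 21.8, 23.8 and 32.4 CPM in the control, 17.7, 15.6 and 19.6 in the Asb2 cKO, 27, 25.9 and 30.9 in the Flna-labelled group and 19.4, 15.3 and 19.4 in the double-labelled group. All 6 Asb2 cKO and double-labelled libraries were below all 6 others. The double-labelled group was lower than the Flna-labelled group, at -0.62 (standard error 0.14, limma adjusted p = 0.0105). Against the control the differences of -0.53 and -0.50 had limma adjusted p of 0.0628 and 0.052. Col13a1 passed in the Asb2 cKO with DESeq2, the joint fit, length and GC trends removed and the Xist covariate (log2 -0.53 to -0.62, adjusted p 0.0266 to 0.0413) and in the double-labelled group with DESeq2, the joint fit, library weights, the filter of 5 CPM and length and GC trends removed, and without control library 1 (log2 -0.50 to -0.62, adjusted p 0.0159 to 0.0479). In the 3 comparisons, other collagens passed 0 of 4, 1 of 4 and 3 of 4, beside 21.6%, 32.3% and 31.5% of all genes.

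Among matricellular genes, Postn, periostin, which guides collagen assembly in maturing cushions, had the largest fall of all 38. It was at 26.4, 44 and 55.5 CPM in the control, 9.82, 2.17 and 8.36 in the Asb2 cKO, 37.5, 49.4 and 17 in the Flna-labelled group and 9.8, 3.95 and 2.18 in the double-labelled group. The highest of the 6 Asb2 cKO and double-labelled libraries was at 9.82 CPM and the lowest of the others at 17. The log2 difference from the control was -2.70 (standard error 0.51, limma adjusted p = 0.0102) in the Asb2 cKO and -3.03 (standard error 0.51, limma adjusted p = 0.00584) in the double-labelled group, and -2.69 (standard error 0.54, limma adjusted p = 0.00945) for the double-labelled against the Flna-labelled group. These calls held under all 19 alternatives of each comparison.

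Tnc, tenascin C, a glycoprotein of remodelling matrix, was at 100.4, 128 and 166 CPM in the control, 211, 159 and 171 in the Asb2 cKO, 155, 237 and 209 in the Flna-labelled group and 98.4, 121 and 156 in the double-labelled group. It reached above the control in the Asb2 cKO and in the Flna-labelled group. Of the double-labelled libraries, 2 and 3 lay in the control range and library 1 just below it. The double-labelled group was lower than the Flna-labelled group, at -0.68 (standard error 0.20, limma adjusted p = 0.0369), lost without Flna-labelled library 2 or 3 or double-labelled library 1 or 2 (log2 -0.52 to -0.67, adjusted p 0.0663 to 0.11) and with plain limma (log2 -0.68, adjusted p = 0.0651). Against the control, the Asb2 cKO differed by 0.48 and the Flna-labelled group by 0.61, with limma adjusted p of 0.0881 and 0.322. The Asb2 cKO passed without control library 3 (log2 0.66, adjusted p = 0.0346). Sparc, Thbs1 (thrombospondin 1, which can activate latent TGF-β) and Bgn (biglycan, a small leucine-rich proteoglycan) did not pass in any comparison, though Thbs1 was called lower in the Asb2 cKO without Asb2 cKO library 2 (log2 -0.88, adjusted p = 0.0212).

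**Figure D4:**
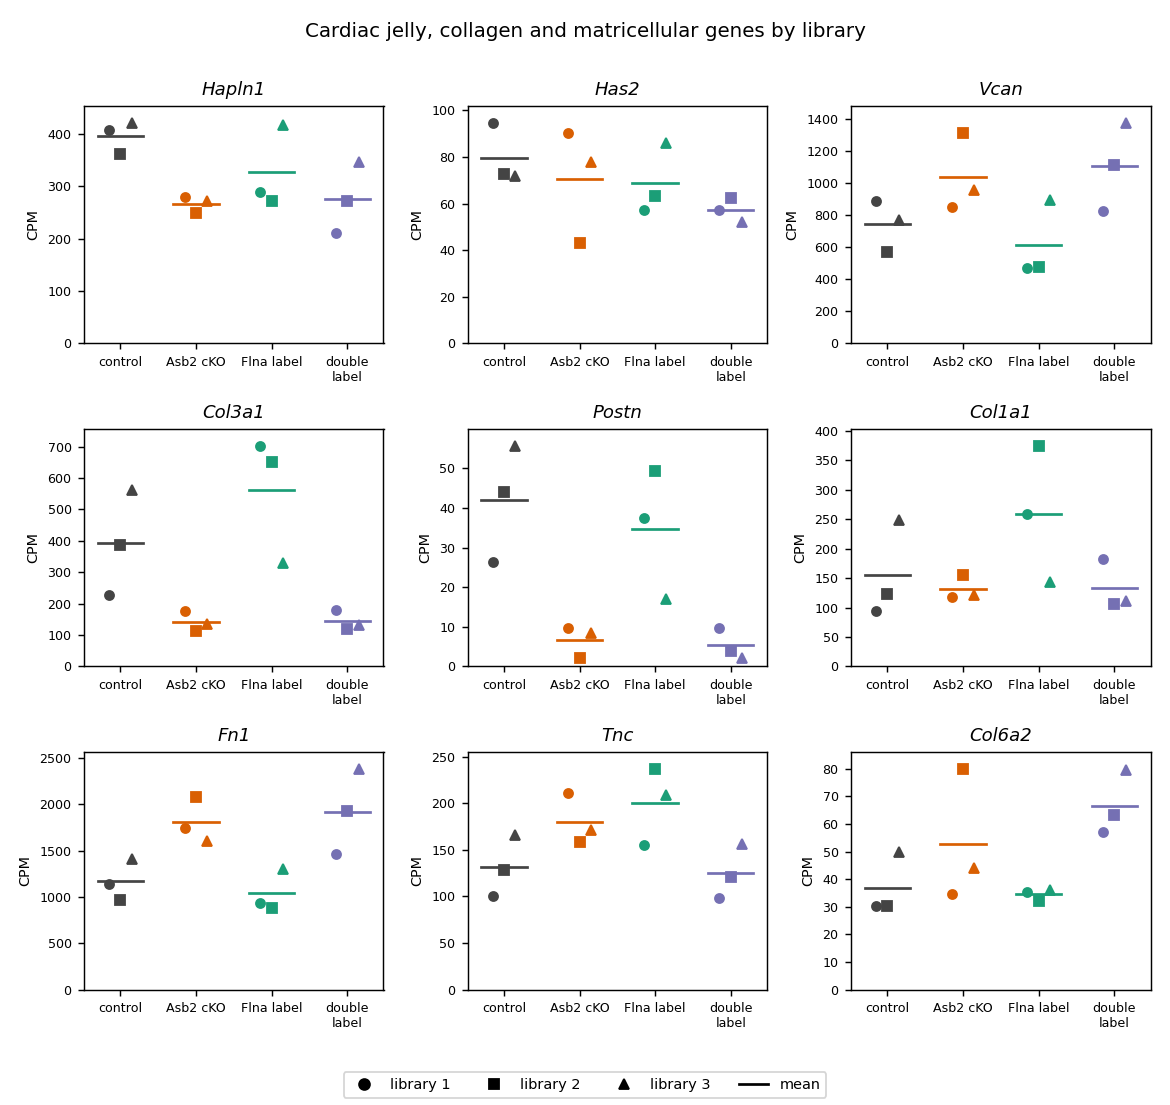
CPM of 9 genes of the cardiac jelly, collagens, fibronectin and matricellular proteins in each library, with 1 marker shape for each library number and a line for the group mean. Hapln1, Col3a1 and Postn are low in the Asb2 cKO and double-labelled libraries, Fn1 is high there, and Col1a1 is highest in Flna-labelled libraries 1 and 2.

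The Flna-labelled group differed from the control in 0 of 38 members by limma, with 3 at an unadjusted p under 0.05 (Lama1, Col11a1 and Tnc), 0 by edgeR's quasi-likelihood test (background 0.0144% of genes) and 1 by DESeq2 (1.76%). The one called by DESeq2 was Lama1, at 15.8, 22.9 and 29.1 CPM in the control and 36.3, 47.3 and 35.9 in the Flna-labelled group, with no overlap. The limma log2 difference of Lama1 was 0.83 (standard error 0.22, limma adjusted p = 0.292). Over the 38 genes the differences ran from -0.42 for Lama4 to 0.83 for Lama1. The 2 groups did not overlap for 3 members, against a background of 18.0% of genes.

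Between the double-labelled group and the Asb2 cKO, 0 members passed by limma, edgeR (background 0.0285% of genes) or DESeq2 (0.0997%), and 2 had an unadjusted p under 0.05. These were Tnc, with a log2 difference of -0.54 (standard error 0.18, limma adjusted p = 0.999) and no overlap, and Eln, with 0.88 (standard error 0.29, limma adjusted p = 0.999). Without Asb2 cKO library 2, 1 member passed, Thbs1, at 0.94 (limma adjusted p = 0.043). The interaction, which asks whether the step from Asb2fl/+ to Asb2fl/fl differed with the Flna label, passed for 0 of 38 members by limma and 0 by edgeR (0.0% of genes). By limma 4 members had an unadjusted p under 0.05 (Tnc, Col11a1, Lama1 and Sparc), and DESeq2 called 1, Tnc, against 0.508% of genes. The limma interaction of Tnc was -1.16 (standard error 0.30, limma adjusted p = 0.416). Over all 13981 genes 0 passed by limma (0.0%), with 1372 at an unadjusted p under 0.05. A p that misses the threshold does not show that the groups were alike.

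Pairs of subunits that assemble together varied differently in their ratio. Over the 12 libraries the highest ratio per length was 1.11 times the lowest for Col4a1 to Col4a2, 1.61 times for Lamb1 to Lamc1, 2.17 times for Col1a1 to Col1a2, 2.32 times for Col6a1 to Col6a2, 2.56 times for Col5a1 to Col5a2 and 3.01 times for Nid1 to Nid2. Nidogens are paralogues and not partners in 1 molecule. As a share of all signal, the 38 genes made up 0.873 to 1.13% in the control, 1.12 to 1.47% in the Asb2 cKO, 0.996 to 1.09% in the Flna-labelled group and 1.21 to 1.38% in the double-labelled group. The basement membrane genes alone made up 0.343 to 0.444%, 0.517 to 0.752%, 0.374 to 0.451% and 0.607 to 0.649% in the same order. The fibrillar collagens made up 0.141 to 0.199%, 0.118 to 0.133%, 0.178 to 0.247% and 0.115 to 0.139%.

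**Figure D5:**
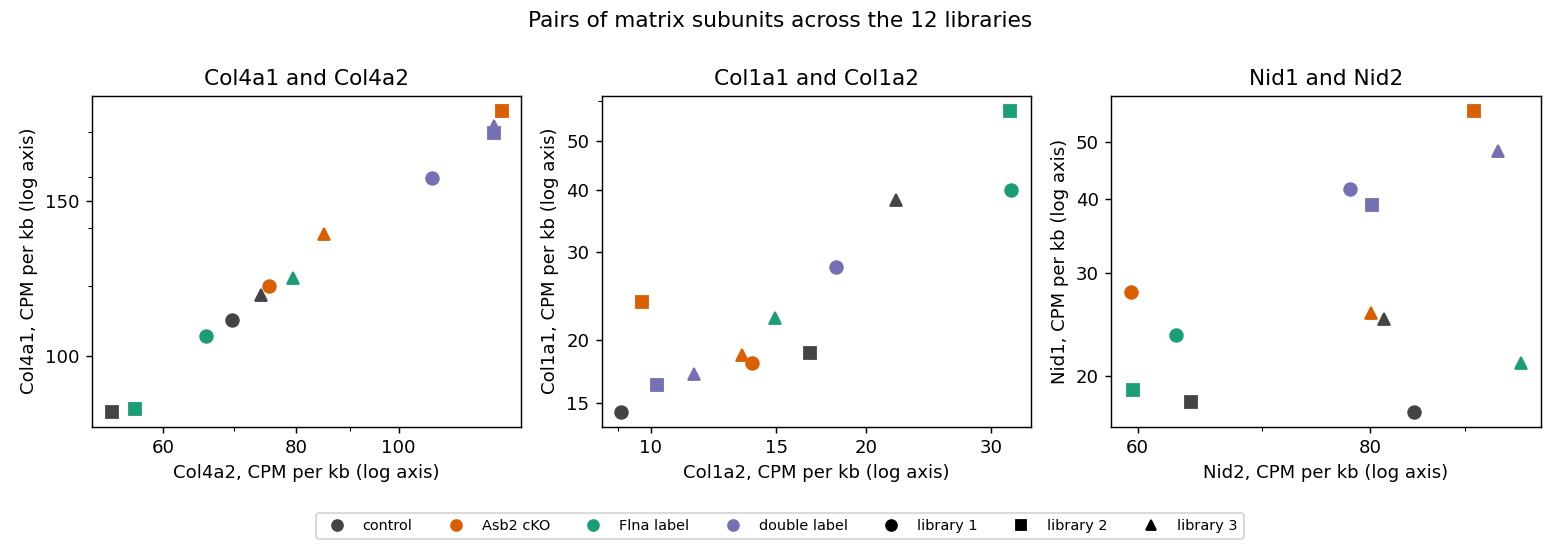
Levels of 3 pairs of matrix genes as CPM per kilobase on log axes, 1 point a library, coloured by group. Col4a1 and Col4a2 lie along 1 line, with the double-labelled libraries and Asb2 cKO library 2 at the upper end, while Nid1 is high in the double-labelled libraries and highest in Asb2 cKO library 2, at levels of Nid2 that other libraries share.

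The 4 lists of related genes were read in the same fits, beside the 21.6%, 32.3% and 31.5% of all genes called in the Asb2 cKO, in the double-labelled group against the control and in that group against the Flna-labelled group. Of integrins and other matrix receptors the shares called were 8.33%, 34.6% and 30.8%, in that order. In the Asb2 cKO 2 of 24 rose, Sdc4, the syndecan 4 coreceptor, by 1.02 and Cd44, the hyaluronan receptor, by 0.63, and 0 fell. Sdc4 left the threshold without Asb2 cKO library 2 (log2 0.84, adjusted p = 0.0585) and with plain limma (log2 1.02, adjusted p = 0.0503) and Cd44 without control library 2 or 3 or Asb2 cKO library 2 or 3 (log2 0.50 to 0.57, adjusted p 0.121 to 0.155) and with plain limma, the joint fit and length and GC trends removed (log2 0.49 to 0.63, adjusted p 0.0896 to 0.137). Of 26 tested there, 7 rose in the double-labelled group against the control and 2 fell, led by Sdc4 at 1.19 and Itga1, a collagen and laminin receptor chain, at 1.05, with Itga2b, the platelet integrin chain, at -0.85 and Itga7, a laminin receptor chain of muscle, at -0.998. The Itga7 call was lost without control library 2 or double-labelled library 2 (log2 -0.85 to -0.94, adjusted p 0.0532 to 0.0634) and with the Xist covariate (log2 -0.83, adjusted p = 0.102). Against the Flna-labelled group 5 of 26 rose and 3 fell, with Sdc4 at 1.23, Itga1 at 1.37, Itga2b at -0.80 and Itgb8, a receptor chain for latent TGF-β, at -0.66, the last lost without Flna-labelled library 1 (log2 -0.66, adjusted p = 0.0521). Itga2b lost its call with the joint fit (log2 -0.80, adjusted p = 0.0635).

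Of 16 genes for the making and turnover of hyaluronan and proteoglycans, 0 rose in any comparison, and 12.5%, 18.8% and 12.5% were called in the order above. In the Asb2 cKO 2 fell, Chpf, a chondroitin polymerising factor, at -0.86 and Ugp2, which makes UDP-glucose, at -0.69. Against the control 3 fell in the double-labelled group, with Chpf at -0.64 and Ugp2 at -0.71, and 2 against the Flna-labelled group, with Chpf at -0.45 and Ugp2 at -0.37. In the last comparison Chpf left the threshold without Flna-labelled library 1 (log2 -0.39, adjusted p = 0.0551) and Ugp2 without Flna-labelled library 1 or 3 or double-labelled library 1 or 2 (log2 -0.30 to -0.37, adjusted p 0.0819 to 0.115) and with plain limma (log2 -0.37, adjusted p = 0.0778).

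Of matrix proteases and inhibitors, 5 of 21 rose and 2 fell in the Asb2 cKO. The shares called were 33.3%, 20.0% and 40.0%. Timp3, a matrix-bound inhibitor of metalloproteases, rose by 1.13 and Reck, a membrane-anchored inhibitor, by 1.00. Timp1, a soluble inhibitor, differed by -0.97, lost without control library 3 (log2 -0.83, adjusted p = 0.0654), and Pcolce, an enhancer of procollagen processing, by -0.56, lost without control library 2 or 3 or Asb2 cKO library 2 or 3 (log2 -0.46 to -0.52, adjusted p 0.0889 to 0.136) and with plain limma (log2 -0.56, adjusted p = 0.0867). In the double-labelled group 4 of 20 rose against the control and 0 fell, with Timp3 at 1.28 and Adamts9, a protease that can cleave versican, at 0.78. Relative to the Flna-labelled group 4 of 20 rose and 4 fell, with Timp3 at 1.36, Adamts9 at 0.56, Mmp14, a membrane metalloprotease, at -0.47 and Pcolce at -0.50, the last lost without Flna-labelled library 2 or double-labelled library 2 (log2 -0.45, adjusted p 0.0521 to 0.0577).

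Of 53 other matrix genes, 11 rose and 3 fell in the Asb2 cKO. The shares called, 26.4%, 32.1% and 30.2%, were near those of all genes. Ctgf, a matricellular protein, rose by 1.98 and Frem2, a protein of epithelial basement membranes, by 1.60, while Col9a3, a cartilage collagen chain, fell, at -1.82, as did Fmod, fibromodulin, at -2.46. Against the control, 14 rose and 3 fell in the double-labelled group, with Ctgf at 2.43, Sparcl1, a relative of Sparc, at 1.87, Thbs3, a thrombospondin, at -1.25 and Col9a3 at -1.88. Against the Flna-labelled group 13 rose and 3 fell, with Ctgf at 2.61, Frem2 at 1.31, Thbs3 at -1.13 and Matn2, matrilin 2, at -1.31. These values are log2 differences past a limma adjusted p of 0.05. Across the 4 related lists 0 genes passed in the Flna-labelled group against the control, or in the double-labelled group against the Asb2 cKO, with 11 in each at an unadjusted p under 0.05.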

How the data were processed

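RNA of 12 libraries, 3 in each of 4 genotype groups, was extracted with a Qiagen RNeasy Micro Kit, per the labels' protocols. The submitters' processing notes name STAR, the mm10 genome, HTSeq and edgeR, with no versions, strand or settings. The authors deposited 4 tables of a signal they name CPM, and how it was scaled is not given in the sources used here. From the values, the columns sum to 942334 to 1051801, where plain CPM had been assumed in planning, and 100.0% of values are whole multiples of 1 read within 0.01 read, with 1 factor per library. The tables were joined on gene id, with values that differed by at most 4.43e-06 CPM between tables. The deposited log2 fold changes, p-values and FDR are the authors' own. The deposited gene length was used per kilobase. Beyond these, 13 columns without headers were not used.

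Tests were run in R 4.3.3 with limma 3.58.1, both its trend and robust options on, over the 6 libraries compared. Values were log2(CPM + 0.5). Genes averaging under 1 CPM were left out, p-values were adjusted by Benjamini-Hochberg and the threshold was 0.05. Differences on this scale understate low genes. The interaction used all 12. edgeR 4.0.16 and DESeq2 1.42.0 ran on the recovered reads. Steps were tested on simulated counts. All replicate pairs differed beyond sampling noise. GENCODE M21 held 15522 of the gene identifiers (99.1%).

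The members, the lists and the alternatives were chosen with earlier results of these data known. The genes named are Asb2 and Flna, each member past the threshold, and from each related list up to 2 genes in each direction with the smallest p. Marker genes, and members that did not pass, were named after their values were seen. Marker lists for neural crest and pharyngeal mesenchyme, for yolk sac, parietal endoderm and liver bud, and for notochord and cartilage were read too. Their summed levels were 54 to 94.8, 83.3 to 135, 82.4 to 173 and 119 to 213 CPM for neural crest, in the order control, Asb2 cKO, Flna-labelled and double-labelled. For yolk sac, parietal endoderm and liver bud they were 103 to 456, 124 to 194, 215 to 528 and 108 to 122, with Alb and Hnf4a at 0 in the double-labelled group. Of 11 tested, 1 was higher and 6 lower in the double-labelled against the Flna-labelled group (63.6%, beside 31.5% of all genes). Against the control, 1 of 11 was higher in the Flna-labelled group (9.09%, beside 0.072%). In the Asb2 cKO 27.3% were called (beside 21.6%), and in the double-labelled group 22.2% (beside 32.3%). Their part in the basement membrane differences was not tested. For notochord the summed levels were 48.5 to 89.5, 56.3 to 73.7, 62.1 to 103 and 58 to 121. The labels do not say whether replicate numbers pair the samples. Deviations from the group means of same-numbered libraries had r of -0.46 to 0.43 over 6 pairs of groups. All 3 values were over 0.1 in 0 of these pairs. For the Flna-labelled and double-labelled groups the 3 values were 0.27, 0.03 and 0.43. With 3 libraries in each group, such values cannot exclude pairing. Other software was python 3.11.15 (numpy 2.4.6, pandas 2.3.3, matplotlib 3.10.9).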

Additional observations from a re-analysis of the deposited data

How the results depend on the processing

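Each result was recomputed under 19 alternatives: a smaller (0.1) or larger (2) pseudocount, the low-value filter dropped or raised to 5 CPM, median-of-ratios scaling, limma with neither option, edgeR, DESeq2, a replicate block, all 4 groups in 1 fit, library weights, Xist as covariate, length and GC trends removed, and each library left out. No sign changed in the 87 single-gene results, and 152 of 1650 values left the threshold. The calls that held under all 19 were 3 of 9 members in the Asb2 cKO, 9 of 17 in the double-labelled group against the control and 12 of 19 against the Flna-labelled group.

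Members called in the Asb2 cKO were 17 with DESeq2, 15 with the joint fit, 18 with Xist as a covariate (Xist was at 1 CPM or more in libraries of the control, Asb2 cKO and double-labelled groups) and 5 to 10 when leaving out 1 library. All genes called were 3816 with DESeq2, 4231 with the joint fit and 3719 with Xist. The main fit called 9 members and 3033 genes there. In the double-labelled group against the control, 11 members and 3903 genes were called without trend or robust, beside 17 and 4523 in the main fit. Leaving out 1 library gave 10 to 17 members there. DESeq2 called 1 member in the Flna-labelled group and 1 for the interaction, and leaving out 1 library gave 0 to 1 for the double-labelled group against the Asb2 cKO and 13 to 27 against the Flna-labelled group. Over all genes, leaving out 1 library gave 1581 to 2508 calls in the Asb2 cKO, 2875 to 4342 in the double-labelled group against the control, 2712 to 4623 against the Flna-labelled group, 2 to 26 against the Asb2 cKO, 0 to 98 in the Flna-labelled group and 0 to 18 for the interaction. The Flna-labelled group had 0 without trend or robust, 2 with edgeR, 244 with DESeq2, 2 with the joint fit, 29 with library weights and 0 with Xist. The double-labelled group against the Asb2 cKO had 14 with DESeq2 and 0 with the joint fit, and the interaction 71 with DESeq2, 8 with weights and 5 with Xist. The cause was not tested.

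With the replicate number as a block, which only shares a number, 5 members and 1557 genes were called in the Asb2 cKO and 1 gene in the Flna-labelled group. In the double-labelled group the block gave 18 members and 4358 genes against the control, beside 17 and 4523 in the main fit. Against the Flna-labelled group it gave 25 members and 5474 genes, beside 19 and 4394. The number of libraries limits the precision, and depth does not for most of these genes.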
